A study of Mus musculus with 3 samples.

Results

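Calcium entry, calcineurin and NFAT are described here through 36 genes, among 50600 in the deposited gene tables, measured by RNA-seq in mouse T cells. The genes form a list of channels, store sensors, pumps, phosphatase subunits and transcription factors, set by name and matched by symbol, and the rule of membership uses no measured value. The study holds 3 libraries of primary T cells of the inbred C57BL/6NJ strain, labelled as biological replicates 2, 3 and 4 of 1 group. The labels cite a protocol for differentiating CD4+ T cells, the file headers name Th0 cells, the word activated and 0 h, and no genotype change, agent, sex or age is given. A separate biosample but the same donor identifier is given for each library, so the labels do not say whether the libraries came from separate animals. The p-values for variation below ask whether a gene's counts differ among these libraries more than those of genes of like abundance. Those for paralog pairs ask whether the difference within each library departs from 0 over the libraries. Both take the library as the unit, and differences among libraries may be in part technical. With 1 group there was no comparison of conditions, and the data answer which paralogs the cells transcribed, at what level, and how far the libraries differed.

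In T cells an engaged antigen receptor activates phospholipase C, which makes IP3. IP3 opens receptors in the endoplasmic reticulum, the store empties, and STIM proteins that sense its calcium gather under the plasma membrane and open ORAI channels. Calcium that enters binds calmodulin, which activates the phosphatase calcineurin, and calcineurin strips phosphate from NFAT proteins so that they move into the nucleus and switch on activation genes. Pumps return calcium to the store or out of the cell, and potassium channels hold the membrane potential that drives entry. Ciclosporin and tacrolimus block this route by inhibiting calcineurin.

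Replicate 2 had 47432940 gene counts, replicate 3 had 59698913, and replicate 4, the shallowest, had 28340521. Levels are in TPM (transcripts scaled to a fixed total per library), computed from the deposited counts and exon lengths and given as mean ± SD over the 3 libraries. Floors and intervals below reflect counting error alone. The T cell markers fixed for the check, Cd3e, Cd3d, Cd3g, Trac, Cd4 and Lck, were all detected in every library, with a sum between 7767 and 7917 TPM. Of the CD8 markers, Cd8a stood at 0.534 ± 0.182 TPM and Cd8b1 at 33.6 ± 3.00 TPM. All 7 B cell markers were also detected, with sums between 1294 and 1330 TPM, of which Ighm made up 1223 ± 40.6 TPM. Sums of the myeloid and dendritic markers were between 16.4 and 18.0 TPM, those of NK cells between 5.07 and 6.84 TPM, of platelets between 3.01 and 3.75 TPM, of erythroid cells between 1.20 and 5.35 TPM, of mast cells between 0.0985 and 0.232 TPM, and of stroma and endothelium between 3.39 and 3.43 TPM. In bulk RNA, fewer cells of a type and less RNA per cell cannot be told apart, and the part of other cells in any level below was not tested. Libraries also stood apart in single genes, chosen after their values were seen. In replicates 2, 3 and 4 the X-linked Xist stood at 151, 0.221 and 0.399 TPM, the Y-linked Ddx3y at 0.248, 80.0 and 72.3 TPM, and Fos at 30.8, 27.2 and 122 TPM. The first 2 genes divide the libraries as female and male cells would, so not all 3 came from the same animal, and whether replicates 3 and 4 did was not tested. The mean of any detected member changed by a factor between 0.942 and 1.08 when any library was left out.

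Of the 36 members, 33 were detected, meaning 1 TPM or more in every library. The same held for 23.4% of all genes and for 46.1% of protein-coding genes. The 3 that were not detected were Itpka, Atp2b4 and Nfatc4, each a paralog of a gene that was. Of the 33, all but Camk2d reached 10 TPM in every library, and 10 reached 100 TPM in every library: Orai2, Itpr3, Itpkb, Atp2a3, Ppp3r1, Nfatc1, Nfatc3, Calm2, Calm3 and Kcnn4. The median of all 36 members was 69.4 TPM, against 33.4 TPM for the 10030 detected protein-coding genes, and 25 members lay above that value. The detected members below it were Orai3, Itpr1, Itpkc, Atp2b1, Ppp3ca, Camk2d, Rcan1 and Mcu.

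**Figure D1:**
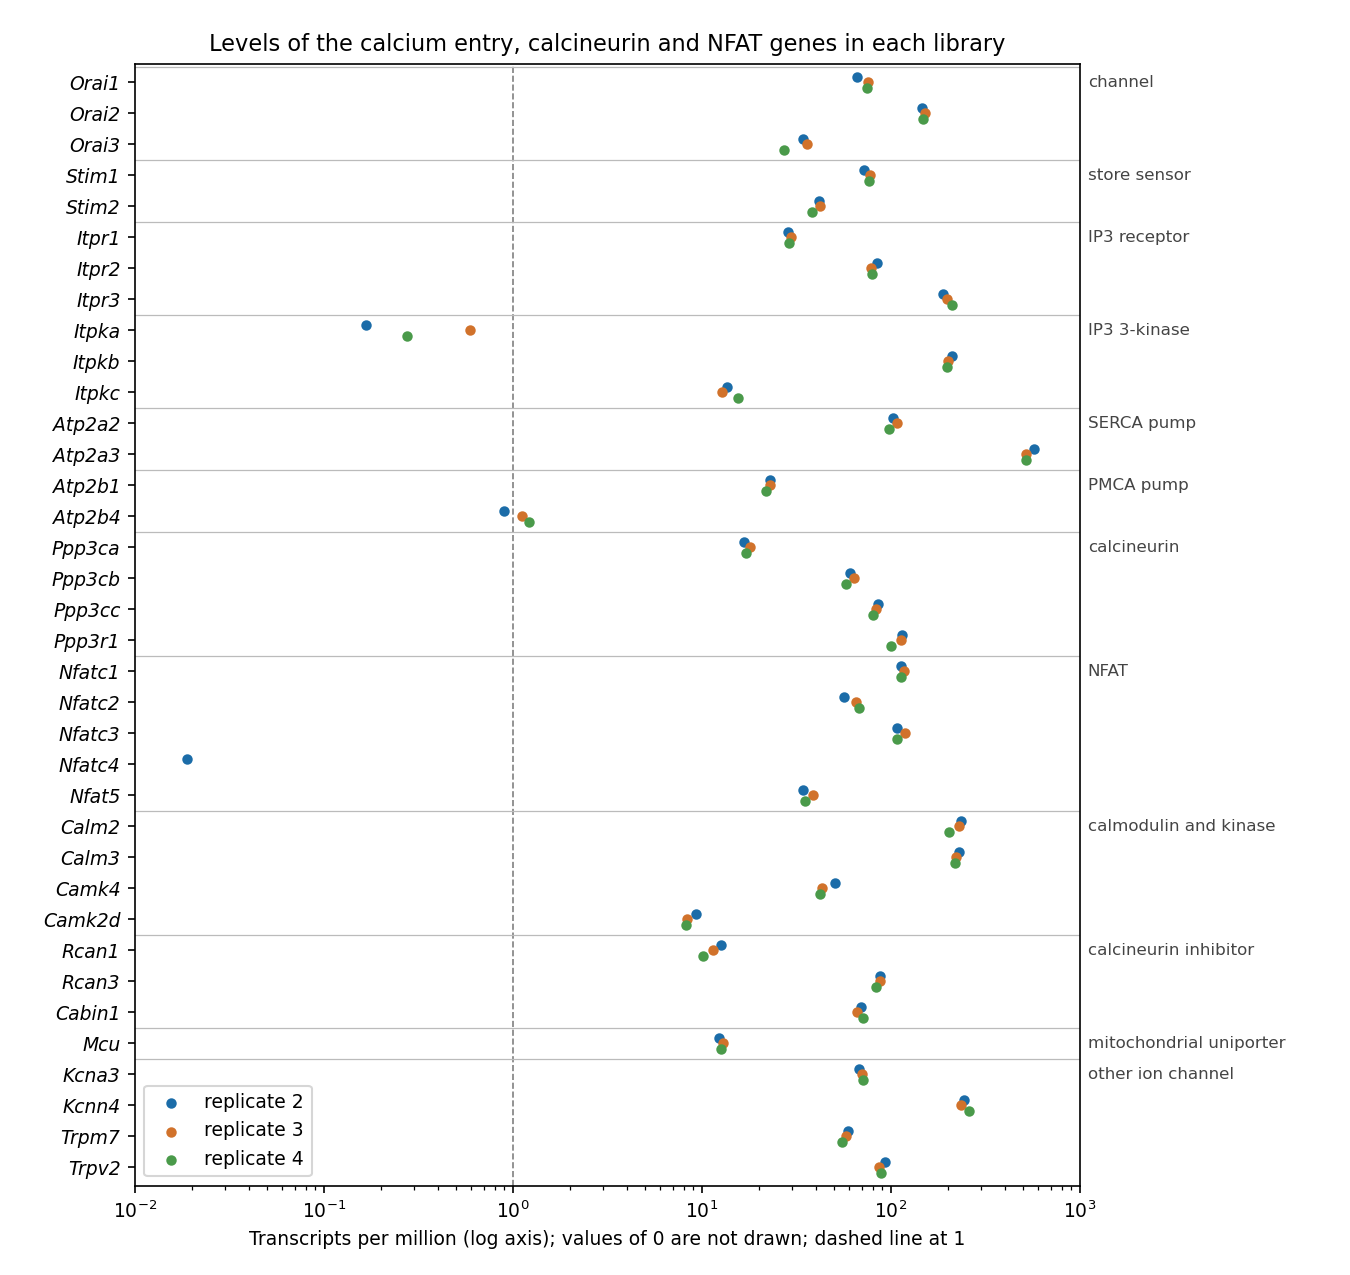
Level of each of the 36 genes in TPM on a log axis, grouped by role, with 1 point for each of replicates 2, 3 and 4 and a dashed line at the detection level of 1 TPM. Most members lie above 10 TPM with their 3 points close together, Itpka and Nfatc4 lie below the line, Atp2b4 lies across it, and Nfatc4 has a point in replicate 2 alone because it had 0 counts in the others.

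A gene's TPM depends on the length it is divided by. The deposited length is the sum of all merged exons, UTRs included, and for 8 members it gave a level that moved by more than 1.5 times when the longest annotated transcript was used instead. Of these, 7 were higher with the shorter transcript length: Camk4 went from 45.1 to 163 TPM, Camk2d from 8.60 to 27.8 TPM, Mcu from 12.6 to 24.2 TPM, Stim1 from 75.4 to 143 TPM, Atp2b1 from 22.4 to 38.1 TPM, Ppp3ca from 17.2 to 28.7 TPM and Nfatc3 from 112 to 174 TPM. Ppp3cc went the other way, from 83.1 to 51.6 TPM. Its longest transcript of 2494 bases in the later GENCODE release exceeds its deposited length of 1948 bases, which accounts for part of the fall. The rest is a scaling common to all genes, since a gene whose length did not change scaled by 0.795 between the 2 measures. The 1.5 times was not corrected for this factor, so the 8 are not all the members that depend on length. Itpr1, for one, had a ratio of 1.48. Where this choice turns an order between paralogs around, both values are given below.

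**Figure D2:**
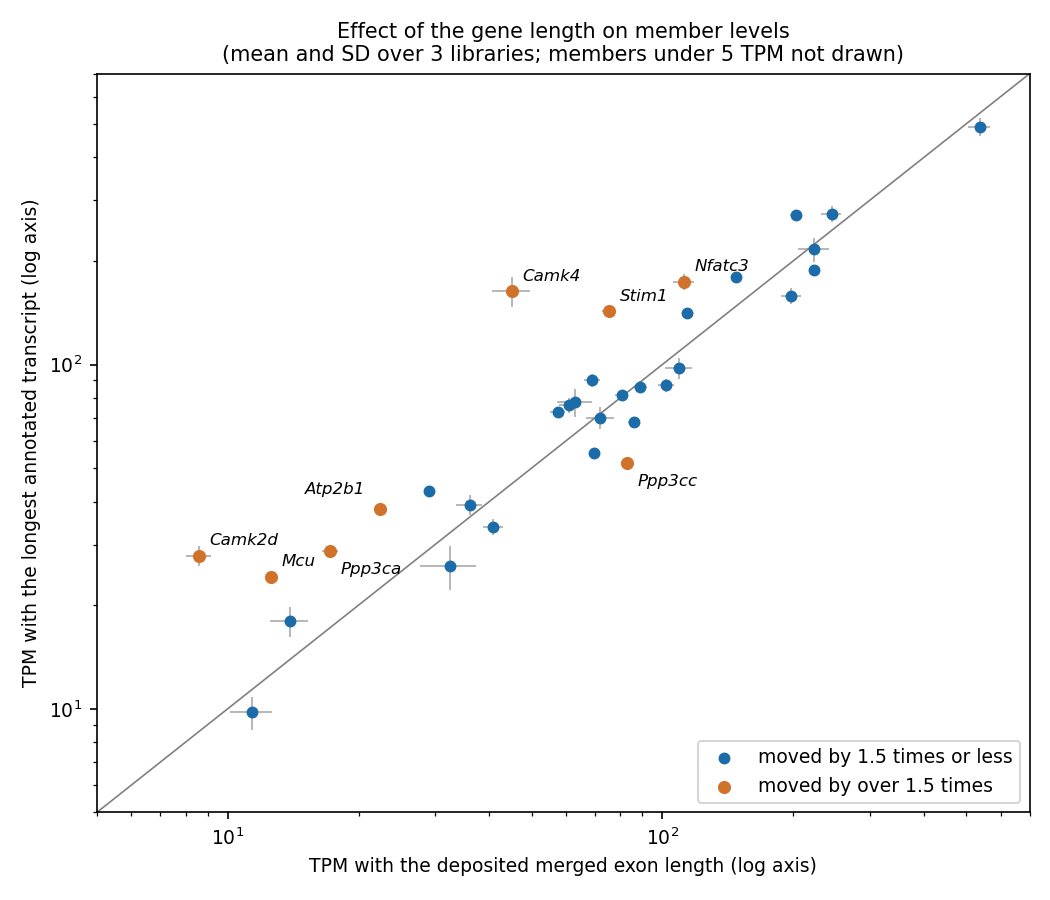
Mean TPM of each member with the longest annotated transcript (vertical, log axis) against mean TPM with the deposited merged exon length (horizontal, log axis), with bars of 1 SD over the 3 libraries and a line of equal values. The 8 members in orange moved by more than 1.5 times, Camk4 and Camk2d the most, and members under 5 TPM are not drawn.

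Most transcripts of the ORAI family came from Orai2. The ORAI proteins form the pore of the calcium release-activated channel, and Orai1 is the subunit whose loss causes immune deficiency in people. Orai2 (ENSMUSG00000039747.11, mm10 chromosome 5, 136147459 to 136170713, minus strand) was at 146, 151 and 148 TPM in replicates 2, 3 and 4, or 148 ± 2.81 TPM (SD, n = 3). Orai1 (ENSMUSG00000049686.14, chromosome 5, 123015074 to 123030456, plus strand) was at 66.0, 75.6 and 74.5 TPM, and Orai3 at 34.4, 36.1 and 27.1 TPM. The ranges of the 3 genes over the libraries did not overlap, and the order in each library was Orai2, Orai1, Orai3. Orai2 made up 58.7 ± 0.978% of the family's summed TPM, Orai1 28.5 ± 1.56% and Orai3 12.9 ± 1.74%. On the log2(TPM + 0.1) scale the excess of Orai2 over Orai1 was 1.04 ± 0.09, and the ratio of their pooled counts, corrected for length, was 2.06, with a 95% exact binomial interval from 2.01 to 2.12. Orai2 was the higher in 3 of 3 libraries. A two-sided exact permutation test that flips signs gave p = 0.250, the smallest p that 3 libraries allow, with an adjusted p of 0.27 by the Benjamini-Hochberg method over the 27 paralog pairs compared here. No pair could therefore pass 0.05. Whether the TPM values of a pair overlap is given as a description and is not a test. How often any 2 genes of the table would keep apart in this way was not computed. Overlap also does not cover error in the gene length. Orai1 exceeded Orai3 by 1.15 ± 0.27, with a pooled ratio of 2.14 (2.05 to 2.24).

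Orai3 was lowest in replicate 4, and of all members it had the smallest p for variation among libraries. That p was 0.124 before adjustment and 1.000 after it, by edgeR's goodness of fit described below. Of the 7 B cell markers, 5 were also lowest in replicate 4, among them Igkc at 50.1, 64.9 and 35.4 TPM and Cd79b at 15.2, 17.2 and 11.5 TPM. Ms4a1 was lowest in replicate 2, at 1.77, 2.49 and 1.84 TPM, and Ighm, the highest of the list, was highest in replicate 4, at 1227, 1180 and 1261 TPM. None of the 7 was at 0 counts. The sum of the list thus followed Ighm and was not lowest in replicate 4. Other lists also had genes lowest in replicate 4: 3 of the 6 T cell markers, 3 of the 4 erythroid markers and 1 of the 4 NK cell markers. Of the 7 myeloid and dendritic markers it was 0. Whether B cell RNA had a part in the level of Orai3 was not tested.

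The store sensors were transcribed at a lower sum than the channels. STIM proteins sit in the endoplasmic reticulum membrane with a calcium-binding EF hand inside the store, and Stim2 responds to smaller losses of store calcium than Stim1. Stim1 (ENSMUSG00000030987.5, chromosome 7, 102267806 to 102437319, plus strand) was at 72.2, 77.4 and 76.7 TPM and Stim2 at 41.8, 42.3 and 38.3 TPM. Stim1 lay above Stim2 in 3 of 3 libraries, by 0.89 ± 0.11 on the log2 scale, with a pooled ratio of 1.83 (1.78 to 1.87). With the longest transcript the difference grew to 2.08. Summed over paralogs, Orai transcripts reached 253 ± 8.95 TPM and Stim transcripts 116 ± 3.05 TPM, a ratio of 2.17 ± 0.0197, or 1.56 ± 0.0156 with the longest transcript.

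Itpr3 was the highest of the IP3 receptor genes. The 3 Itpr genes encode IP3 receptors, the tetrameric channels through which the endoplasmic reticulum releases calcium. Itpr3 (ENSMUSG00000042644.8, chromosome 17, 27057304 to 27122223, plus strand) was at 189, 197 and 210 TPM, Itpr2 at 83.9, 78.4 and 79.6 TPM and Itpr1, the main form of neurons, at 28.5, 29.5 and 28.9 TPM. None of the 3 overlapped another. Itpr3 held 64.4 ± 1.64% of the family sum, Itpr2 26.2 ± 1.49% and Itpr1 9.42 ± 0.308%. Itpr3 exceeded Itpr2 by 1.30 ± 0.12 and Itpr1 by 2.77 ± 0.07 on the log2 scale, with pooled ratios of 2.44 (2.41 to 2.47) and 6.76 (6.66 to 6.87). The order was the same with the longest transcript, where the difference over Itpr1 was 1.88.

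Of the kinases that add a phosphate to IP3 and so convert it to IP4, nearly all transcripts came from Itpkb, which is needed for T cell development in the thymus. Itpkb (ENSMUSG00000038855.10, chromosome 1, 180330485 to 180424802, plus strand) was at 210, 200 and 199 TPM. Itpkc was at 13.5, 12.7 and 15.5 TPM, and Itpka, a form of neurons, at 0.167, 0.595 and 0.276 TPM, from 26 counts in all. Itpkb held 93.4 ± 0.667% of the sum. It exceeded Itpkc by 3.86 ± 0.16 on the log2 scale, with a pooled ratio of 15.0 (14.4 to 15.6), and Itpka by 8.95 ± 0.73, with a pooled ratio of 538 (367 to 823). Of all windows of 50 bases in Itpkc transcripts, 23.2% also occur in BC024978, which overlaps it on the opposite strand, and the authors' counting by strand, per the file headers, keeps the 2 genes apart.

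**Figure D3:**
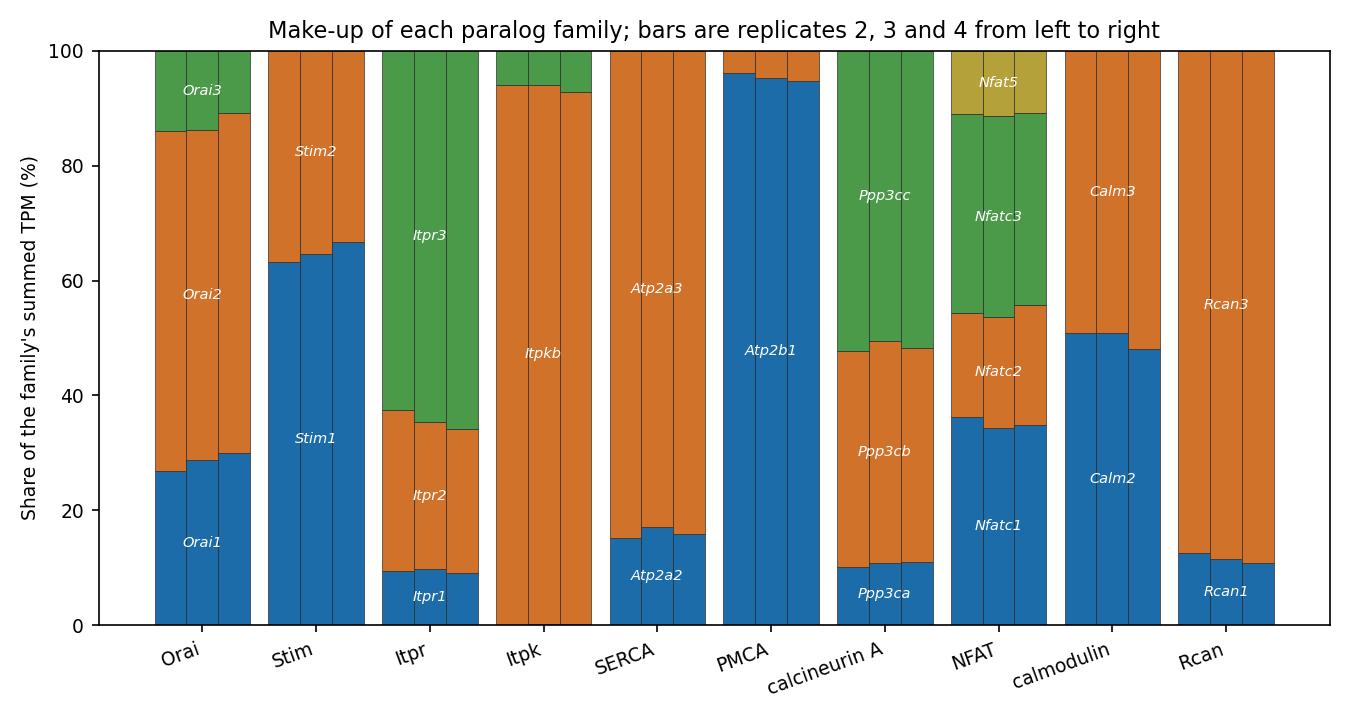
Share of each paralog in the summed TPM of its family in percent, with the bars of replicates 2, 3 and 4 side by side for each of the 10 families. In 8 families a single paralog held over 50% of the sum in every library, from 51.6% on average for Ppp3cc to 95.4% for Atp2b1, while NFAT and calmodulin had no such paralog.

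Pumps of the store were transcribed far above those of the plasma membrane. SERCA pumps carry calcium into the endoplasmic reticulum and PMCA pumps export it from the cell. Atp2a3, which encodes SERCA3 and is typical of blood cells, was the highest of all 36 members: it was at 573, 519 and 519 TPM, or 537 ± 31.2 TPM, and stood at the 97.9th percentile of detected protein-coding genes (ENSMUSG00000020788.15, chromosome 11, 72961169 to 72993044, plus strand). Atp2a2, the broadly expressed SERCA2 gene, was at 102, 107 and 97.9 TPM. Replicate 2 was the highest for Atp2a3, and the 2 genes did not overlap. Atp2a3 exceeded Atp2a2 by 2.39 ± 0.11 on the log2 scale, with a pooled ratio of 5.22 (5.15 to 5.29), and held 84.0 ± 1.00% of their sum.

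Among the plasma membrane pumps, Atp2b1 was at 22.8, 22.8 and 21.7 TPM and Atp2b4 at 0.893, 1.12 and 1.21 TPM, from 491 counts. Atp2b4 thus missed the detection level in replicate 2 alone. Atp2b1 exceeded it by 4.27 ± 0.24 on the log2 scale, with a pooled ratio of 21.3 (19.4 to 23.3). The summed SERCA transcripts were 639 ± 31.1 TPM and those of PMCA 23.5 ± 0.553 TPM, a ratio of 27.2 ± 1.17, which became 14.8 ± 0.604 with the longest transcript. Of 12 other pump and exchanger genes, 2 were detected, the Golgi pump gene Atp2c1 at 27.8 ± 1.42 TPM and the mitochondrial sodium-calcium exchanger gene Slc8b1 at 13.6 ± 1.20 TPM. The third highest was Atp2a1, the SERCA gene of fast skeletal muscle, at 0.682 ± 0.0651 TPM, and 6 of the 12 had 0 counts.

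Calmodulin is a small protein with EF hands that carries the calcium signal to calcineurin and to the CaM kinases. Calm2 and Calm3 encode the same protein from different coding sequences, which lets reads tell them apart. Their coding sequences in GENCODE M21 have 450 bases with the stop codon and differ at 78 of them, an identity of 82.7%, yet the 149 translated residues are the same. The first 90 bases of each, with capitals at the 15 bases that differ between them, show how the differences are spread:
Calm2: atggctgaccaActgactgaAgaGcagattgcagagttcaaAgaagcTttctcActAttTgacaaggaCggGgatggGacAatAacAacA
Calm3: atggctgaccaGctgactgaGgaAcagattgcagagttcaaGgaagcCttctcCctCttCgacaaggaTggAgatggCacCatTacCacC
The longest stretch without a difference over the whole coding sequence is 17 bases, and no window of 50 bases is shared between any 2 of the 36 members.

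With the deposited lengths the pair stood at nearly the same level. Calm2 (ENSMUSG00000036438.12, chromosome 17, 87433412 to 87446935, minus strand) was at 236, 230 and 202 TPM and Calm3 (ENSMUSG00000019370.10, chromosome 7, 16915379 to 16924114, minus strand) at 228, 221 and 219 TPM. Their values overlapped, with Calm3 the higher in replicate 4 alone, and the difference of 0.01 ± 0.10 was within the spread of the libraries (exact two-sided sign-flip permutation p = 1.00). The order changed with the length used: with the longest transcript Calm2 was the higher in all 3 libraries, at 229, 222 and 196 TPM against 192, 186 and 184 TPM, a difference of -0.20, and with no length correction Calm3 was above by 0.73. Some of Calm2 may be undercounted, since 9.72% of its windows of 50 bases also occur in other annotated genes.

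Of the CaM kinases, Camk4, which phosphorylates the factor CREB in lymphocytes, was at 50.3, 42.9 and 42.0 TPM, and Camk2d, a subunit of CaM kinase II, at 9.25, 8.33 and 8.21 TPM. Both were highest in replicate 2, and both levels are among those that rise with the longest transcript. Among the 17 other calmodulin and CaM kinase genes, 8 were detected. The highest kinase genes among them were Camk2g at 69.6 ± 2.62 TPM and Camk1d at 34.6 ± 1.48 TPM.

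Calcineurin is a dimer of a catalytic A subunit, from 3 genes, and a regulatory B subunit. Ppp3r1, which encodes the B subunit, was at 114, 113 and 100 TPM (ENSMUSG00000033953.10, chromosome 11, 17159263 to 17200375, plus strand). The testis form of the B subunit, Ppp3r2, had 0 counts, at a floor of 0.0262 TPM for 3 counts over the pooled libraries. Of the exon bases of Ppp3r1, 14.3% lie in exons of Wdr92 on the same strand, where reads may be left uncounted, so its level may be low.

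The TPM ranges of the catalytic genes over the libraries did not overlap. Ppp3cc, the gamma gene (ENSMUSG00000022092.10, chromosome 14, 70217898 to 70289449, minus strand), was at 85.3, 83.8 and 80.2 TPM. Ppp3cb, the beta gene (ENSMUSG00000021816.10, chromosome 14, 20499364 to 20546573, minus strand), was at 61.0, 63.8 and 57.9 TPM, and Ppp3ca, the alpha gene, at 16.6, 18.0 and 17.0 TPM. Ppp3cc held 51.6 ± 0.887% of the sum, Ppp3cb 37.8 ± 0.669% and Ppp3ca 10.7 ± 0.416%. The order of the upper pair rested on the length. Ppp3cc exceeded Ppp3cb by 0.45 ± 0.05 on the log2 scale with the deposited lengths, but the difference was -0.56 with the longest transcript, where Ppp3cb held 48.7% and Ppp3cc 33.0%, and -1.18 in scaled counts (CPM) with no length correction. Ppp3cb exceeded Ppp3ca by 1.82 ± 0.05, with a pooled ratio of 3.57 (3.46 to 3.67), and by 1.41 with the longest transcript. Ppp3cc exceeded Ppp3ca by 2.27 ± 0.08, and by 0.85 with the longest transcript. Summed catalytic transcripts were 161 ± 5.47 TPM, a ratio of 1.48 ± 0.0610 to Ppp3r1, and 1.60 ± 0.0701 with the longest transcript.

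**Figure D4:**
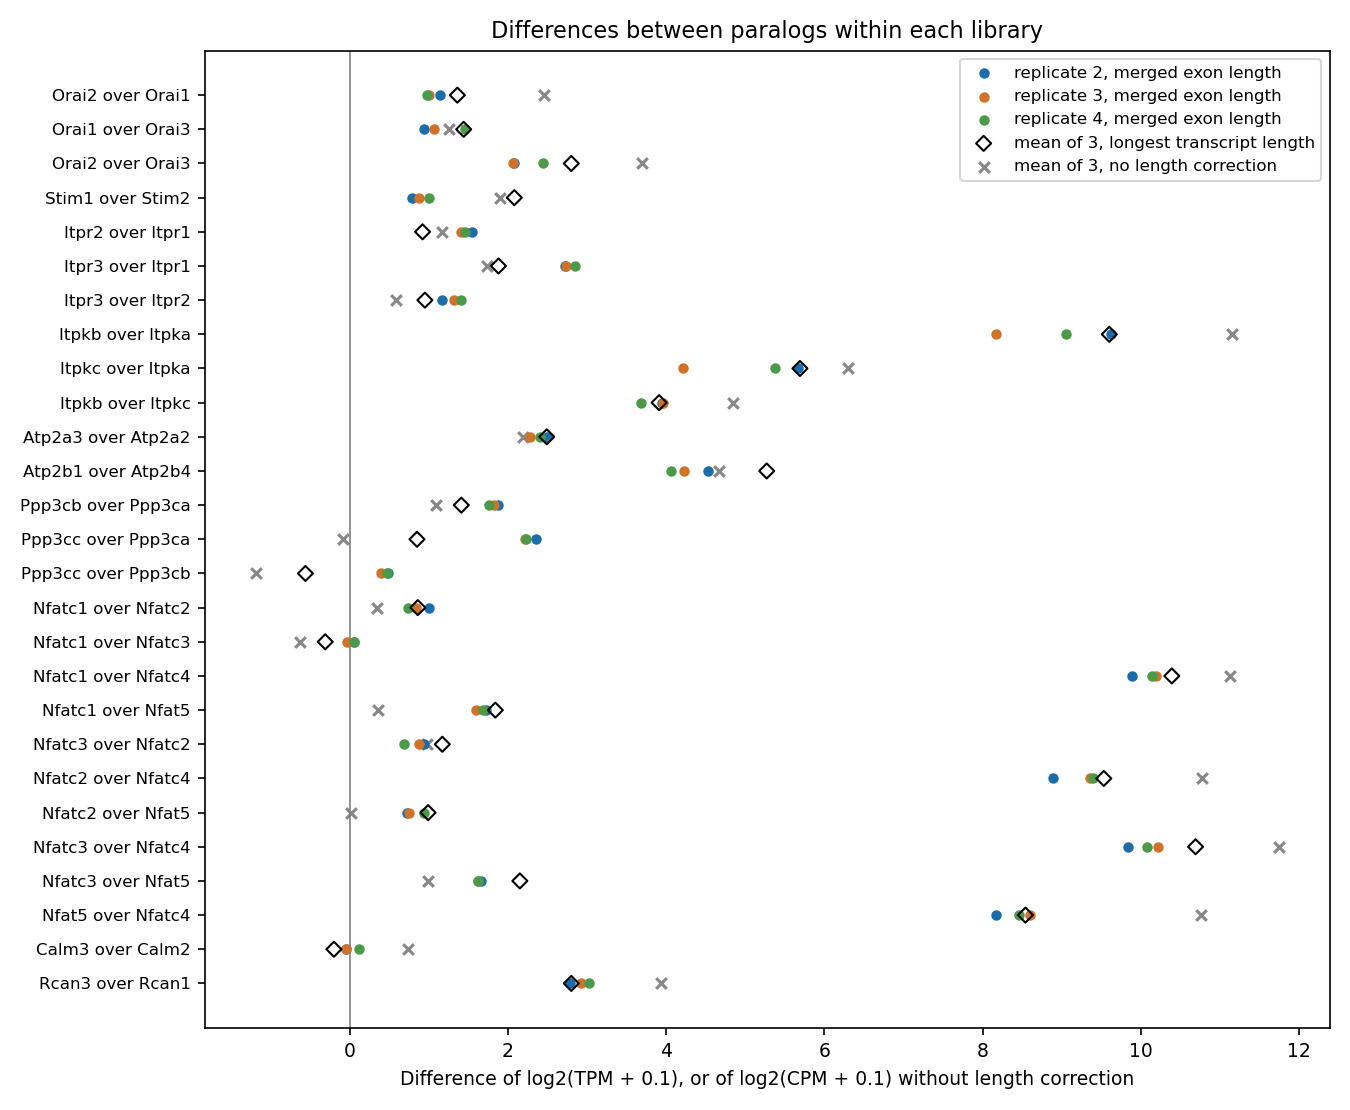
Difference between paralogs within a library on the log2(TPM + 0.1) scale for the 27 pairs, with 1 point for each replicate, a diamond for the mean with the longest annotated transcript and a cross for the mean of log2(CPM + 0.1) with no length correction. The points lie on the same side of 0 in all 3 libraries for 25 pairs, and the pairs Ppp3cc over Ppp3cb, Nfatc1 over Nfatc3 and Calm3 over Calm2 change sides with the longest transcript.

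The inhibitors of calcineurin differed widely in level. Proteins of the Rcan family bind calcineurin and block it, and Cabin1 encodes another calcineurin-binding inhibitor. Rcan3 (ENSMUSG00000059713.12, chromosome 4, 135412308 to 135433853, minus strand) was at 87.6, 87.1 and 83.0 TPM and Rcan1 (ENSMUSG00000022951.15, chromosome 16, 92391953 to 92466146, minus strand) at 12.6, 11.4 and 10.1 TPM. The genes did not overlap: Rcan3 exceeded Rcan1 by 2.91 ± 0.12 on the log2 scale, with a pooled ratio of 7.48 (7.04 to 7.96), and held 88.3 ± 0.865% of the sum. Rcan2 had 0 counts. Cabin1 was at 69.7, 66.0 and 71.4 TPM.

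Rcan1 is a textbook feedback gene of the pathway, whose inner promoter is switched on by NFAT while its outer promoter is not. Both windows are shown because the counts of Rcan1 join the transcripts of both and cannot divide its low level between them. The windows are from RefSeq on GRCm38.p6, run from 250 bases before the start to 50 after it on the minus strand, and have capitals at the NFAT core GGAAA on either strand:
Rcan1 outer promoter, chr16:92466120-92466419: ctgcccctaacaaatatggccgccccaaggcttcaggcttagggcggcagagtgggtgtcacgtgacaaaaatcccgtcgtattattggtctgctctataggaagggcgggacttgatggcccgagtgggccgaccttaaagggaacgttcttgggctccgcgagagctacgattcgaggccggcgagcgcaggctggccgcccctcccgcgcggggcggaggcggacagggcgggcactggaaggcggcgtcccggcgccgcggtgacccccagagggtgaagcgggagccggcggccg
Rcan1 inner promoter, chr16:92400029-92400328: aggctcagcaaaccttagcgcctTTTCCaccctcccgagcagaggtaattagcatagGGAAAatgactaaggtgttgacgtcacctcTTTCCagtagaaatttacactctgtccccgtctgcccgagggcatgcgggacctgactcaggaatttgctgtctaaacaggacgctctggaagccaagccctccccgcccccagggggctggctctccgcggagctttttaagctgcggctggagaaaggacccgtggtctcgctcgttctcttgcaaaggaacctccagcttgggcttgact
The inner window holds 3 matches and the outer 0. Windows with 3 or more matches were 9.42% of the 32851 RefSeq promoter windows. RefSeq windows were found for 29 members, 35 windows in all, of which 20 held the core (57.1%), against 61.3% of all windows. The most, 4, were in Ppp3cb, and 2.65% of all windows held 4 or more. A match is a string of letters and not a site shown to be bound. In base composition, 24 of the 35 member windows (68.6%) had an observed over expected CpG ratio of at least 0.6, against 35.8% of all windows. All windows include those of genes not detected here, and windows of detected genes alone were not compared.

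Nfatc1 and Nfatc3 led the NFAT genes, and Nfatc4 lay at the limit of counting. NFATc1 to NFATc4 respond to calcineurin, while NFAT5 lacks the calcineurin-binding region and responds to osmotic stress. Nfatc1 (ENSMUSG00000033016.15) was at 113, 117 and 113 TPM, and Nfatc3 (ENSMUSG00000031902.10, chromosome 8, 106058840 to 106130537, plus strand) at 108, 119 and 108 TPM. The values of this pair overlapped, and the difference of 0.03 ± 0.05 did not exceed the spread (exact two-sided sign-flip permutation p = 0.50, adjusted p = 0.519). With the longest transcript Nfatc3 was the higher in all 3 libraries, a difference of -0.31, and with no length correction the difference was -0.63.

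Nfatc2, whose protein is abundant in resting T cells, was at 56.5, 65.2 and 67.5 TPM, below Nfatc1 by 0.86 ± 0.13 and below Nfatc3 by 0.83 ± 0.13 on the log2 scale. Nfat5 was at 34.2, 38.7 and 35.0 TPM, below Nfatc2 by 0.81 ± 0.12, but by only 0.01 in CPM with no length correction. None of these TPM values overlapped. Nfatc4 (ENSMUSG00000023411.11, chromosome 14, 55824795 to 55833943, plus strand) had 1 count, in replicate 2, which is under its floor of 0.0198 TPM for 3 counts over the pooled libraries. The pooled ratio of Nfatc1 to it was 17390, with an exact interval from 3121 to 686907 that shows how little 1 count fixes. By share, Nfatc1 held 35.1 ± 0.949% of the family sum of 325 ± 13.9 TPM, Nfatc3 34.4 ± 0.862%, Nfatc2 19.4 ± 1.39% and Nfat5 11.1 ± 0.302%.

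Of the remaining channels, Kcnn4 was the highest. Kcna3 and Kcnn4 encode KV1.3 and KCa3.1, the voltage-gated and the calcium-activated potassium channels of T cells, Trpm7 a divalent cation channel fused to a kinase, and Trpv2 a cation channel of the TRP family. Kcnn4 (ENSMUSG00000054342.8, chromosome 7, 24370263 to 24386690, plus strand) was at 242, 234 and 259 TPM and Kcna3 (ENSMUSG00000047959.4, chromosome 3, 107036169 to 107038070, plus strand) at 67.6, 70.5 and 71.1 TPM. They did not overlap, and their ratio was 3.51 ± 0.173, or 4.94 ± 0.244 with the longest transcript. Trpv2 was at 92.4, 85.9 and 88.2 TPM and Trpm7 at 59.5, 57.7 and 55.2 TPM. Mcu, the pore of the mitochondrial calcium uniporter, was at 12.3, 12.9 and 12.6 TPM, among the lowest of the detected members.

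No member was found to vary among the libraries. Variation was tested with edgeR by the goodness of fit of a model with a single level per gene, which asks whether a gene's counts vary among libraries more than those of genes of like abundance. All members but Itpka and Nfatc4 reached the mean count of 10 that the test needs, and of these 34 members 0 passed an adjusted p of 0.05, against 0.533% of the 13498 genes tested. At an unadjusted p under 0.05 it was also 0 of 34, against 4.10% of all genes tested. With only 34 members, 0 is near what either share would give. The smallest unadjusted p-values after that of Orai3 were 0.140 for Nfatc2, which was lowest in replicate 2, and 0.223 for Itpkc, which was highest in replicate 4. Left-out libraries brought 2 members under 0.05 before adjustment, with unadjusted p-values of 0.0332 for Orai3 without replicate 2 and 0.0404 for Nfatc2 without replicate 3, each with an edgeR adjusted p of 1.000.

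The median coefficient of variation in TPM was 4.60% for the members and 7.15% for all genes tested, but the members also had more counts, with a median of 6134 per library against 940. Among the 3351 genes with mean counts in the members' interquartile range, from 2240 to 10318, the median was 4.03%, and for the 16 members in that range it was 4.60%. The farthest library was replicate 2 for 14 of the 34 genes, replicate 3 for 7 and replicate 4 for 13. In TPM, replicate 4 was the lowest for 17 of them and the highest for 7. These counts were not set against those of all genes tested. The summed TPM of all 36 was 3340, 3295 and 3238.

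**Figure D5:**
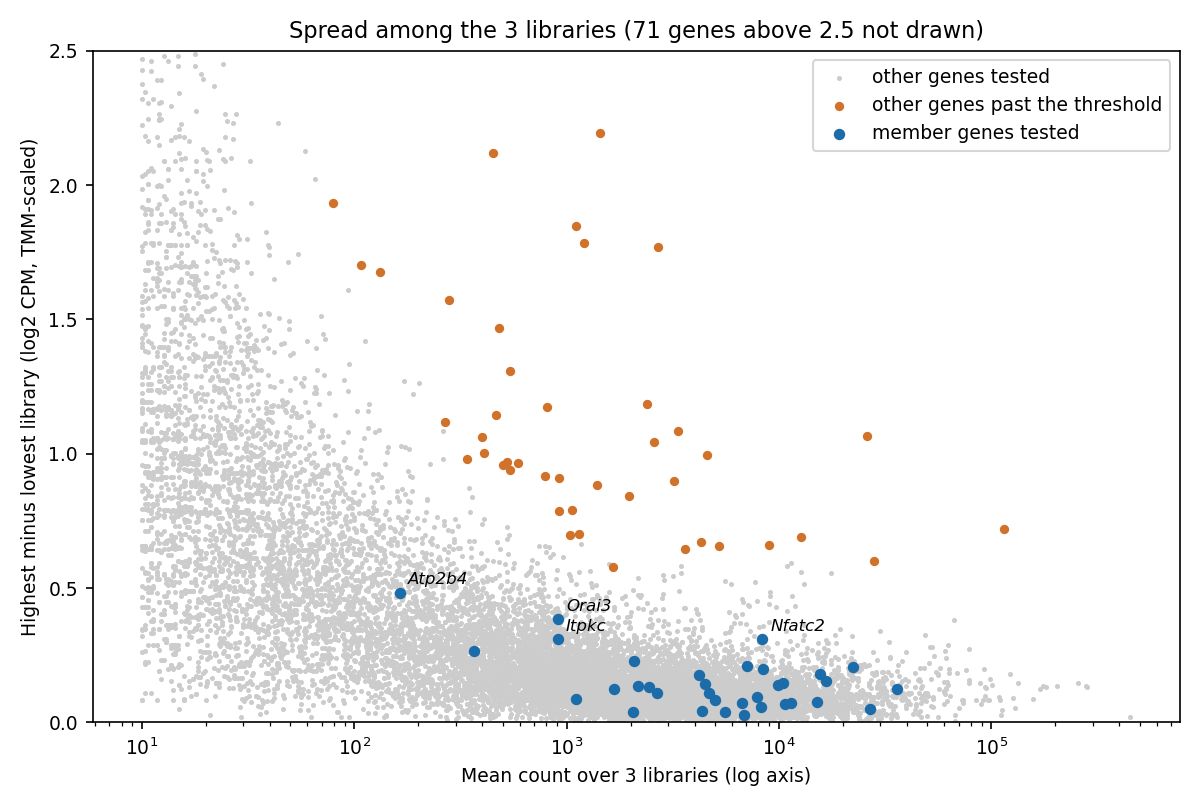
Spread of each tested gene among the 3 libraries, as the highest minus the lowest TMM-scaled log2 CPM, against its mean count on a log axis, with the 34 members tested in blue, other genes past an adjusted p of 0.05 in orange and the rest in grey. The median spread of the members was 0.13 against 0.19 for all genes tested. Their median count per library was also higher, 6134 against 940. Atp2b4 at 0.48 and Orai3 at 0.38 were the widest members, and 71 genes above 2.5 are not drawn.

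Other genes of the pathway were read from 10 lists taken from textbook knowledge, with 204 of 206 genes matched. Of these 120 were detected. By edgeR's goodness of fit, 0 of the 139 tested varied among the libraries at an adjusted p of 0.05 and 2 did at an unadjusted 0.05. Upstream of the IP3 receptors, 12 of 15 genes of IP3 production and breakdown were detected, led by Plcg1, the phospholipase that the antigen receptor activates, at 318 ± 4.41 TPM, followed by Plcb2, a phospholipase driven by G proteins, at 165 ± 7.64 TPM and the phosphatase gene Inpp5b at 160 ± 6.05 TPM. Of the store and entry regulators, 19 of 27 were detected. Saraf, whose product turns the ORAI channel down, was at 683 ± 24.1 TPM, Tmbim6, of a store calcium leak, at 497 ± 2.81 TPM, and Calr, the store buffer calreticulin, at 452 ± 17.3 TPM. The ryanodine receptor genes, chosen here after their values were seen, were at 0.0130 ± 0.00901 TPM for Ryr1, 0.00951 ± 0.0165 TPM for Ryr2 and 0.0995 ± 0.0313 TPM for Ryr3, all below each of the 3 Itpr genes.

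Downstream, 6 of 16 other calcineurin partners were detected. The highest were Fkbp8 at 272 ± 6.58 TPM, Ppia, which encodes the ciclosporin-binding cyclophilin A, at 239 ± 1.38 TPM, and Fkbp1a, which encodes the tacrolimus-binding FKBP12, at 131 ± 5.42 TPM. Of the kinases that rephosphorylate NFAT and the factors of its retention and transport, 18 of 22 were detected, led by the kinase gene Gsk3a at 232 ± 7.05 TPM, the importin gene Kpnb1 at 212 ± 5.20 TPM and the casein kinase gene Csnk1g2 at 198 ± 3.00 TPM. Other targets of calcineurin were detected for 12 of 14 genes, with Mef2d at 230 ± 10.6 TPM, Foxo1 at 177 ± 3.96 TPM and Crtc2 at 124 ± 3.39 TPM.

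Of 27 genes known as NFAT targets, 19 were detected, and none had 0 counts in all libraries. The highest were Dgka, a diacylglycerol kinase gene tied to anergy, at 1698 ± 66.2 TPM, the lymphoid factor gene Ikzf1 at 635 ± 7.72 TPM, and Cd40lg, the helper ligand, at 280 ± 7.05 TPM. Several cytokine genes of the list, chosen here after their values were seen, were not detected. Over the pooled libraries Il4 had 1 count, Ifng 3, Il21 8, Il3 15, Csf2 19 and Lif 85. The cytokine genes Il2, at 2.36 ± 0.428 TPM, and Tnf, at 46.7 ± 5.49 TPM, were detected. The 2 with an unadjusted p under 0.05 in this list were chosen after their values were seen. Il2ra, the high-affinity IL-2 receptor chain, was at 3.48, 2.83 and 5.49 TPM, highest in replicate 4, with an edgeR adjusted p of 0.115. Irf4, a factor that rises with receptor signal, was at 11.7 ± 2.38 TPM (SD, n = 3), lowest in replicate 3 at 8.96 TPM, with an edgeR adjusted p of 0.598. Neither passed the test after adjustment. Their unadjusted p-values were 0.000713 and 0.00904.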

How the data were processed

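Per the file headers and the submitters' processing notes, the authors counted read pairs over merged exons on the reverse strand with featureCounts 1.4.6-p4, using GENCODE vM13 and mm10, and deposited raw counts for each gene. How the reads were aligned, beyond the word star in the headers, is not given in the sources used here. No multi-mapping option appears in the headers, so near-identical sequence may be undercounted.

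Symbols were matched by Ensembl identifier (50376 of 50600 genes). TPM were computed from the counts and the deposited exon length, so isoforms that lack part of the merged exons are not modelled. Transcript lengths, coding sequences and shared 50-base windows came from GENCODE M21, and promoter windows from RefSeq. Paralogs were compared by the difference of log2(TPM + 0.1) with an exact sign-flip permutation test, and by pooled count ratios with exact binomial 95% intervals. The floor was 3 counts. Variation was tested on the whole table in R 4.3.3 with the goodness of fit of edgeR 4.0.16 (TMM, trended dispersion, mean count of 10 or more, Benjamini-Hochberg at 0.05), after a check on simulated data. TMM factors lay between 0.988 and 1.01. Other steps used pandas 2.3.3, scipy 1.17.1 and numpy 2.4.6 in Python 3.11.15.

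The rule of membership uses no values, but the members, lists and tests were proposed with earlier results of these data known. The genes named were every member, the 3 of highest mean TPM in each other list, any list gene that passed the variation test, and NFAT targets at 0 counts. Marker genes, Ppp3r2, Rcan2 and those said to be chosen after their values were seen lie outside this rule. Alternatives were other lengths, pseudocounts, detection levels, scalings, dispersions, count minimums and each library left out. Among the listed genes, Itprip and Nron were not matched to a single symbol and are not analysed here. Values of a few other listed genes are not reported here.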

Additional observations from a re-analysis of the deposited data

How the results depend on the processing

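The count of 33 detected members became 34 at 0.5 TPM, 33 at 5 TPM and 32 at 10 TPM, and 33 to 34 with a library left out, and the count of 0 members that varied held under each scaling, dispersion, count minimum and left-out library tried. Signs were reversed for 4 of the 27 pairs. Without length correction Ppp3cc over Ppp3ca was -0.08, Ppp3cc over Ppp3cb -1.18 and Nfatc1 over Nfatc3 -0.63, and with the longest transcript the last 2 were -0.56 and -0.31 and Calm3 over Calm2 was -0.20. With a library left out, Calm3 over Calm2 lay between -0.05 and 0.03. Pairs with the same sign in every library numbered 25 under both pseudocounts and without length correction, and 27 with the longest transcript. Without length correction the 25 were not the same pairs. Nfatc2 over Nfat5, at a mean of 0.01, and Ppp3cc over Ppp3ca no longer had the same sign in every library. Calm3 over Calm2 and Nfatc1 over Nfatc3 came to have it. Over all 13498 genes, the 72 that varied became 312 with a common dispersion and between 35 and 46 with a library left out. Libraries could not be paired between conditions because they form a single group, while paralogs were compared within each library. The depth limits Itpka, with 26 counts, and Nfatc4, with 1.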

Other observations

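Mitochondrial calcium handling was transcribed throughout: all 14 listed genes other than Mcu were detected. The highest were Smdt1, which encodes the EMRE subunit that the uniporter needs, at 109 ± 2.39 TPM (SD, n = 3), Letmd1 at 105 ± 4.88 TPM and Vdac1, an outer membrane channel gene, at 90.4 ± 2.41 TPM. Among genes chosen after their values were seen, Mcub, which encodes a subunit that lowers the uniporter's conductance, was at 5.82 ± 0.294 TPM, and the gatekeeper gene Micu2 was at 69.7 ± 3.85 TPM. Mcu itself was at 12.6 ± 0.268 TPM.

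Of 40 other plasma membrane ion channel genes, 10 were detected and 12 had 0 counts. The highest were Kcnab2, a subunit that binds KV1 channels, at 246 ± 7.53 TPM, Hvcn1, the voltage-gated proton channel, at 171 ± 4.02 TPM and Tmem63a, a mechanically gated channel, at 96.0 ± 5.36 TPM.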
